A study of Mus musculus with 2 samples.

Results

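The small leucine-rich proteoglycans examined here were the 9 genes Dcn (decorin), Bgn (biglycan), Aspn (asporin), Lum (lumican), Fmod (fibromodulin), Prelp (proline and arginine rich end leucine rich repeat protein), Omd (osteomodulin), Ogn (osteoglycin) and Podn (podocan), taken by name from the 32285 genes of each matrix and followed across 2 adipose depots and the clusters that the study defined. All 9 were present in both matrices and each had at least 1 UMI in each library. A UMI (unique molecular identifier) marks 1 captured RNA molecule, and levels are given as CPM, the UMIs of a gene per 1000000 UMIs of a group of cells. The kit reads the 3′ end of each molecule, so a CPM is not scaled to gene length, and capture may differ from gene to gene.

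Cells came from the stromal-vascular fraction of subcutaneous white (WAT) and interscapular brown (BAT) fat of newborn C57/BL6J mice of both sexes, labelled as postnatal day 0. The tissue of 4 pups was pooled for each depot. White fat was digested with collagenase for 35 minutes and brown fat for 50 minutes, and adherent cells were grown to confluence, with 4 days of culture in the labels. The labels name no transgene or drug in either group. There was 1 library per depot and no replicate, so depot, digestion time and library cannot be told apart, every value below describes these 2 libraries, and no test between conditions was possible. The intervals cover counting error only, treat UMIs as independent and leave out the variation between cells, pups and cultures.

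Small leucine-rich proteoglycans are secreted proteins of the extracellular matrix whose core is a curved stack of leucine-rich repeats. Most of them bind fibrillar collagen and influence how fibrils assemble, and decorin, biglycan and asporin also bind members of the TGF-beta family. Class I members can carry chondroitin or dermatan sulfate chains, class II members often carry keratan sulfate or sulfated tyrosines, and fibroblasts of connective tissue, including those of adipose stroma, are a main source of the family.

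The translated principal transcripts fell into the known classes by the spacing of the 4 cysteines before the repeats. In Dcn, Bgn and Aspn these cysteines were separated by 3, 1 and 6 residues, in Lum, Fmod, Prelp and Omd by 3, 1 and 9, in Ogn by 2, 1 and 6, and in Podn by 3, 1 and 7. Protein length ran from 298 residues for Ogn to 611 for Podn. Dcn and Bgn were the most alike, with 56.4% identical residues over 353 aligned positions, followed by Aspn and Bgn at 53.3%, Dcn and Aspn at 50.9% and Lum and Fmod at 47.5%. Between residue 21 and the first cysteine of the cluster, Fmod held 10 tyrosines and 11 acidic residues, whereas Prelp held no tyrosine and 8 basic against 4 acidic residues. Serine-glycine pairs were counted from residue 1, so the signal peptide, which is cut off, was included. They stood before the cluster 2 times in Bgn, 1 time in Dcn and 1 time in Lum, and in Aspn there was none. A chondroitin sulfate attachment site has this form, but which of these pairs remain in the mature protein was not checked.

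By the GENCODE M21 annotation (GRCm38), 7 of the 9 genes lie in 3 groups of neighbouring members. Dcn (chr10:97479609-97518143, plus strand) and Lum (chr10:97565128-97572703, plus strand) are 46984 bases apart, with the cornea-associated Kera and then Epyc beyond Lum. Aspn (chr13:49544443-49567565, plus strand), Omd (chr13:49582462-49592822, plus strand) and Ogn (chr13:49608046-49624501, plus strand) follow Ecm2 within the span of Cenpp, which lies on the other strand and has 1 exon that overlaps an exon of Aspn. Prelp (chr1:133910304-133921414, minus strand) and Fmod (chr1:134037254-134048277, plus strand) point away from each other across 115839 bases. Bgn (chrX:73483602-73495933, plus strand) and Podn (chr4:108014791-108096445, minus strand) have no member beside them. The long annotated span of Podn overlaps Scp2 on the same strand. Reads from that shared stretch may be ambiguous, and their effect on the Podn count was not tested.

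The stretches of 150 bases before the RefSeq start (GRCm38.p6) are shown for the 3 neighbours on chromosome 13, whose levels differed widely, and for Bgn, the member with the highest level. Promoters of 7 of the 9 members, all but Dcn and Lum, were matched in the table used.
Aspn, chr13:49544293-49544442, plus strand: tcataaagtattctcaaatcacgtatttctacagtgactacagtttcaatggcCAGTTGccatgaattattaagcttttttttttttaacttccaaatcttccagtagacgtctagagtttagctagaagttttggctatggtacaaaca
Omd, chr13:49582312-49582461, plus strand: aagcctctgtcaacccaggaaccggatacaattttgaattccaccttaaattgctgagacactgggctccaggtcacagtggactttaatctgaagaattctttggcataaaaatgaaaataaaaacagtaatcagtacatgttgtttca
Ogn, chr13:49607865-49608014, plus strand: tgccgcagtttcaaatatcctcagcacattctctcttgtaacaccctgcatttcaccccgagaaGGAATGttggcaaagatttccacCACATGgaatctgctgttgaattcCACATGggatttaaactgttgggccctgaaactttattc
Bgn, chrX:73483451-73483600, plus strand: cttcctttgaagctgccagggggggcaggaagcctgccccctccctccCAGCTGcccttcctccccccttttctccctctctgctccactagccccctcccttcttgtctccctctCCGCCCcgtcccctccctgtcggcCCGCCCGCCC
Capitals mark matches on either strand to 7 motifs: TATAAA for the TATA box, CCAAT for the box of that name, GGGCGG for the GC box, GGAATG for TEAD factors, TGANTCA for AP-1, CAGAC for SMAD factors and CANNTG for the E-box. The Bgn window held 3 GC boxes, the last 2 of them overlapping, and 1 E-box and was 70.0% G or C, the Ogn window held 1 TEAD motif and 2 E-boxes, the Aspn window held 1 E-box and was 33.3% G or C, and the Omd window held no match. Of 32851 promoter windows of the same length, 28.6% held a GC box, 7.59% the TEAD motif and 47.7% an E-box.

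Cluster names were the study's own, read for the first 1999 precursor cells of each depot in its source data. The names are wCAPs and bCAPs for committed adipogenic precursors, wFAPLs and bFAPLs for cells resembling fibro-adipogenic progenitors, and wAPC 1 to 4 and bAPC 1 to 5 for the other precursors. These cells held 57368210 UMIs in white and 57780702 in brown, with medians of 27204 and 26900 UMIs per cell. All 7 fixed FAPL markers (Cryab, Serpinb1a, Meox2, Col4a1, Col4a2, Nr2f2, Cxcl14) were over 2-fold higher in FAPLs than in CAPs of both depots, and Pparg and Fabp4 were over 2-fold lower. Of 6 mural cell markers, 5 (Rgs5, Myh11, Kcnj8, Abcc9, Cspg4) were also over 2-fold higher in FAPLs, with a summed level of 278 CPM in wFAPLs against 47.9 in wCAPs and 254 in bFAPLs against 79.6 in bCAPs. In white and brown precursors the summed markers of other types came to 111 and 210.2 CPM for tendon, 74.8 and 99.5 for cartilage, 91.4 and 75.4 for bone and 22.7 and 17.4 for glial genes, and to 9.31 and 10.3 CPM for myeloid, 3.24 and 2.84 for myogenic and 3.61 and 2.56 for endothelial genes. Only 1 gene each of the tendon, cartilage, bone and glial lists reached 10 CPM in either depot. In wCAPs Tnmd made up 97.6 of 102 CPM for tendon and Sox9 84.0 of 86.0 for cartilage. Runx2 made up 98.3 of 99.4 CPM for bone and S100b 21.4 of 24.5 for glial genes. In bCAPs these 4 genes made up 257 of 267, 96.4 of 108, 80.2 of 84.0 and 20.8 of 23.2 CPM. The libraries shared 9 of their 5261 and 7009 captured barcodes, 3 of them among the labelled cells. No doublet caller was run, and 44 white and 52 brown labelled cells held UMIs of both Xist and a Y-linked gene.

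The 9 genes together made up 0.255% of all UMIs of the labelled white precursors and 0.293% of those of the brown. Bgn led in both depots, at 1699 CPM (95% interval 1689 to 1709.9) in white and 1843 CPM (95% interval 1832 to 1854) in brown, which placed it at rank 90 and 92 among all genes. Dcn followed at 483 and 443 CPM and Aspn at 144 and 387 CPM, so that the 3 class I genes headed the list in both libraries. Ogn was at 84.2 and 112 CPM, Lum at 65.5 and 69.3, and Fmod at 35.9 and 46.8. Podn and Prelp changed places at the low end, Podn being at 19.3 CPM in white and 8.38 in brown and Prelp at 15.1 and 20.6. Omd was near the detection limit, with 52 UMIs in 1999 white and 80 in 1999 brown cells.

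Every labelled precursor cell held a UMI of at least 1 member. Bgn had a UMI in all 1999 cells of each depot, Dcn in 96.7% (exact interval 95.9 to 97.5%) of white and 96.6% (exact interval 95.8 to 97.4%) of brown cells, and Aspn in 77.7% (exact interval 75.8 to 79.5%) and 94.7% (exact interval 93.6 to 95.6%). Lum had a UMI in 45.6% and 48.4%, Ogn in 69.8% and 75.9%, and Fmod in 44.4% and 54.3% of white and brown precursors. Prelp had a UMI in 28.6% and 30.8%, Podn in 34.4% and 19.1%, and Omd in 2.50% and 3.85%. The shares of the class I genes were the highest, and Podn was found in more white than brown cells. After each cell was thinned to 10000 UMIs, Aspn remained detected in 58.6% of white and 84.3% of brown cells, Podn in 16.0% and 6.95%, and Lum in 31.3% and 32.3%.

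Free RNA in the suspension can give UMIs in cells that do not make a gene, so the labelled glial cells, which are not a matrix-producing type, were taken as the background. Among the 20 labelled glial cells of the white library (median 22607 UMIs) Bgn was at 16.9 CPM, Dcn at 2.11 and Aspn at 4.22, and among the 22 of the brown library (median 17174.5 UMIs) they were at 148, 22.1 and 11.0 CPM. Dcn had a UMI in 5.00% of white and 18.2% of brown glial cells, and Lum in 5.00% and 4.55%. The glial levels of each of these 3 class I genes were higher in the brown library, and all of them lay below the precursor levels. They rest on few UMIs, since the white glial cells held 12 UMIs of the 9 genes in all and the brown 92. The 9 genes summed to 25.3 CPM in white and 203 in brown glial cells, and to 157 and 361 in labelled myeloid cells. Precursors held 2547 and 2931 CPM. The 8 labelled brown myoblasts held 555 CPM of Bgn, 128 of Dcn, 119 of Aspn and 61.7 of Ogn, levels between those of glial cells and precursors.

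**Figure D1:**
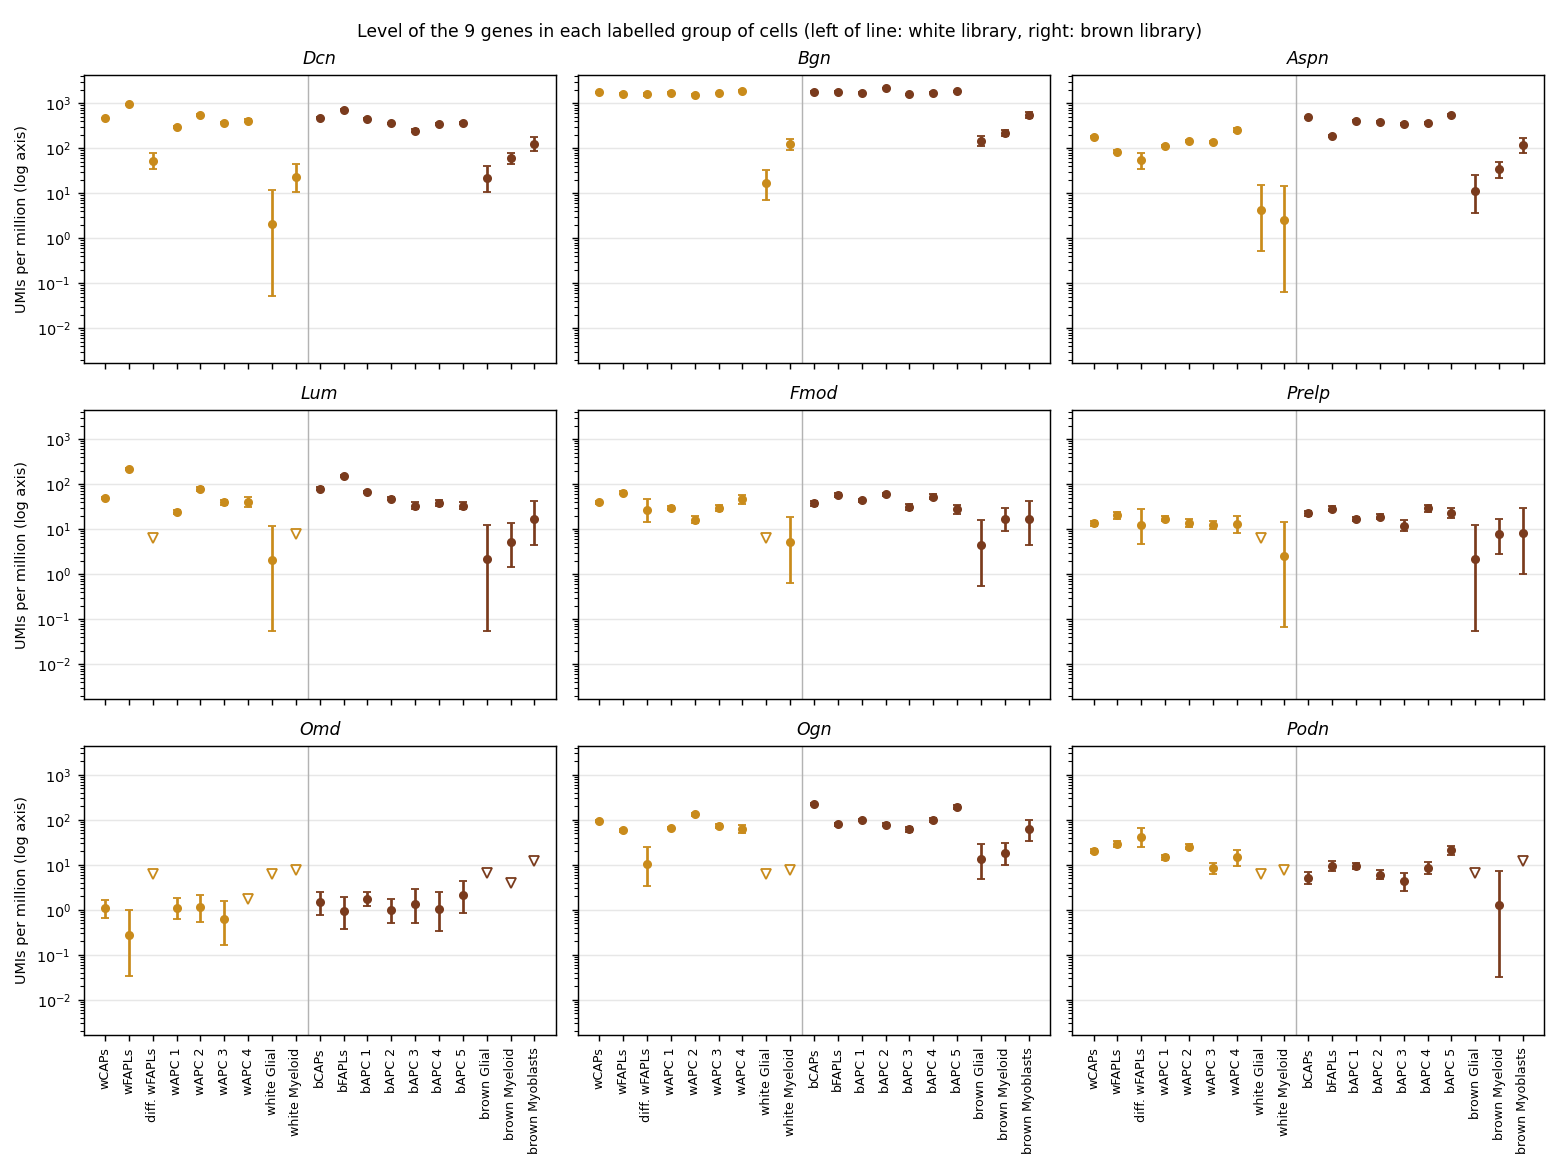
Level of each gene in every labelled group of cells, in CPM on a log axis, with the white library left of the line and the brown library right of it. Points carry 95% Poisson intervals and open triangles mark the level that a count of 0 allows. Bgn runs level across all precursor clusters while Dcn and Lum peak in FAPLs, at 961 and 212 CPM in wFAPLs, and Aspn is lower there.

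Among the class I genes, Dcn, whose protein coats collagen fibrils, had the widest range between clusters. Its level was 469.8 CPM in wCAPs and 961 in wFAPLs, and 298, 548, 374 and 411 CPM in wAPC 1, 2, 3 and 4, with 52.4 in the differentiating wFAPLs. In brown fat it was 478 CPM in bCAPs and 716 in bFAPLs, and 453, 361, 247, 352 and 359 CPM in bAPC 1 to 5. FAPLs were thus the highest cluster of each depot, and in white all 6 neighbouring pairs in the order of clusters were separated by their counting intervals, whereas in brown bAPC 2, bAPC 5 and bAPC 4 were not.

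Bgn, the close relative of decorin, was nearly even. Its level was 1756 CPM in wCAPs and 1624 in wFAPLs, and 1719.6, 1554, 1689 and 1925 CPM in wAPC 1, 2, 3 and 4, with 1587 in the differentiating wFAPLs. The brown levels of Bgn were 1817 CPM in bCAPs and 1803 in bFAPLs, and 1725, 2202, 1573, 1730.4 and 1835 CPM in bAPC 1 to 5. The highest cluster stood only 1.24-fold above the lowest in white and 1.40-fold in brown (clusters of at least 50 cells), the smallest range of any member.

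Aspn, an inhibitor of TGF-beta signalling in other tissues, was lower in FAPLs than in CAPs of each depot, where Dcn was higher. Its level was 183 CPM in wCAPs and 84.7 in wFAPLs, and 115, 144, 139 and 252 CPM in wAPC 1, 2, 3 and 4, with 54.5 in the differentiating wFAPLs. In brown fat it was 491 CPM in bCAPs and 191 in bFAPLs, and 408, 388, 343, 369.6 and 543 CPM in bAPC 1 to 5. Every brown cluster other than bFAPLs exceeded the highest white cluster, wAPC 4, and FAPLs were the lowest cluster of at least 50 cells in each depot. Aspn had a UMI in 53.5% of wFAPLs, 85.8% of wCAPs, 82.1% of bFAPLs and 94.9% of bCAPs.

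Of the class II genes, Lum, which like decorin limits fibril thickness, had the widest range. Its level was 49.7 CPM in wCAPs and 212 in wFAPLs, and 24.2, 77.8, 39.5 and 40.7 CPM in wAPC 1, 2, 3 and 4, with 0 in the differentiating wFAPLs. Among brown clusters Lum was at 79.8 CPM in bCAPs and 152 in bFAPLs, and 67.4, 47.8, 33.3, 38.4 and 33.4 CPM in bAPC 1 to 5. FAPLs were again the highest cluster of each depot, and a UMI of Lum was found in 73.8% of wFAPLs against 45.1% of wCAPs and in 66.7% of bFAPLs against 53.7% of bCAPs. Thinned to 10000 UMIs, these shares were 60.2%, 30.7%, 50.2% and 37.8%.

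Fmod, which binds collagen at a site distinct from that of decorin, was at 39.7 CPM in wCAPs and 64.7 in wFAPLs, and 29.2, 16.2, 29.1 and 46.6 CPM in wAPC 1, 2, 3 and 4, with 27.3 in the differentiating wFAPLs. In brown fat it was at 37.5 CPM in bCAPs and 57.3 in bFAPLs, and 43.3, 60.1, 31.0, 53.0 and 27.6 CPM in bAPC 1 to 5. The wAPC 2 cluster, second to wFAPLs for Dcn and Lum, had the least Fmod, and 4 of 6 neighbouring pairs of clusters in each depot were not separated. Prelp, which links collagen to heparan sulfate of basement membranes, stayed between 12.5 and 20.4 CPM across the white clusters, none of whose neighbours were separated, and between 11.9 and 29.2 CPM across the brown clusters. Omd, best known from bone and tooth matrix, stayed at or under 2.17 CPM in every precursor cluster, and no cluster differed from its neighbour in order.

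Ogn, the class III member, is a short matrix protein also known as mimecan. Its level was 95.4 CPM in wCAPs and 58.4 in wFAPLs, and 66.0, 133, 72.9 and 62.5 CPM in wAPC 1, 2, 3 and 4, with 10.5 in the differentiating wFAPLs. Brown clusters held Ogn at 224 CPM in bCAPs and 79.7 in bFAPLs, and 99.4, 78.1, 61.9, 99.2 and 193 CPM in bAPC 1 to 5. In brown, bCAPs and bAPC 5, also the pair with the most Aspn, stood apart from the other clusters, and in white wAPC 2 and wCAPs led. Podn, the class V member, which has been described as a growth inhibitor of smooth muscle cells, was at 20.1 CPM in wCAPs and 29.3 in wFAPLs, and 14.6, 25.5, 8.46 and 14.7 CPM in wAPC 1, 2, 3 and 4, with 41.9 in the differentiating wFAPLs. In brown fat it was at 5.24 CPM in bCAPs and 9.55 in bFAPLs, and 9.50, 6.12, 4.34, 8.59 and 21.1 CPM in bAPC 1 to 5. Only bAPC 5 of the brown clusters reached 10 CPM of Podn, the level used below as the floor for a fold.

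The 15 differentiating wFAPLs, the smallest cluster, had little of Dcn and Lum, the members with the largest excess in wFAPLs. Dcn was at 52.4 CPM (95% interval 33.9 to 77.4) from 25 UMIs and 18.3-fold lower than in wFAPLs. Lum had no UMI in 15 cells. Taken to allow 3 counts, a count of 0 allows up to 6.29 CPM and up to 20% of cells with a UMI. It does not limit how many cells express the gene at a lower level. The Lum level of wFAPLs was 33.7 times that limit. The limit is not the conditional interval used for the other ratios, and it treats UMIs as independent. Ogn was at 10.5 CPM from 5 UMIs and Fmod at 27.3. Aspn, at 54.5 CPM, had a log2 ratio over wFAPLs of -0.63 (95% interval -1.26 to -0.07). The counting intervals of Bgn, with a log2 ratio of -0.03 (95% interval -0.14 to 0.07), and of Podn, with 0.52 (95% interval -0.22 to 1.18), included no difference. The same 15 cells had 1006 CPM of the adipocyte gene Fabp4 and 2522 CPM of the smooth muscle gene Myh11, and all 15 held a UMI of Rgs5 or Myh11. The part of these markers in the low Dcn and Lum was not tested.

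Beyond the 9 members, the other small leucine-rich genes were scarce. A list of 9 (Kera, Epyc, Optc, Ecm2, Podnl1, Nyx, Chad, Tsku, Chadl) summed to 12.8 CPM in white and 20.0 in brown precursors, and none reached 10 CPM in either depot. Tsku was the highest, at 4.48 and 5.30 CPM. On chromosome 10, Dcn and Lum were the abundant pair while their next neighbours Kera and Epyc were under 1 CPM, and on chromosome 13 Omd was far lower than Aspn and Ogn on either side of it. Ecm2, upstream of Aspn, was at 1.36 CPM in white and 4.59 in brown.

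**Figure D2:**
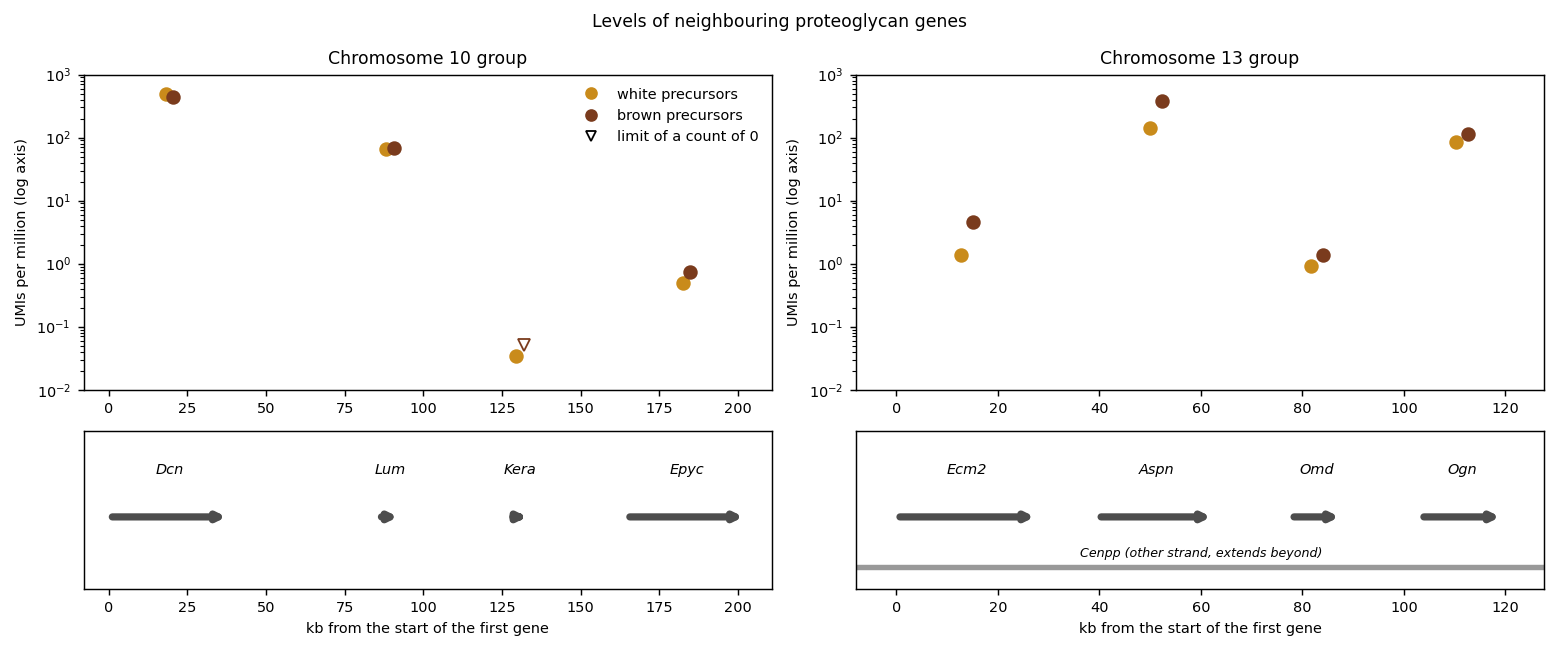
Levels of neighbouring members and their neighbours along chromosomes 10 and 13, in CPM on a log axis, against distance in kilobases from the start of the first gene, for white and brown precursors. Omd sits at 0.906 and 1.38 CPM between Aspn at 144 and 387 and Ogn at 84.2 and 112 CPM.

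Between the depots, Aspn was lower and Podn higher in white precursors, and the other 7 genes differed by less than 2-fold. For Aspn 8280 UMIs were counted in white and 22362 in brown precursors, a log2 ratio of white over brown of -1.42 (95% interval -1.46 to -1.39), 2.68-fold lower in white. For Podn the counts were 1108 and 484, a log2 ratio of 1.21 (95% interval 1.05 to 1.36), 2.31-fold higher in white. A gene is called past 2-fold here when the ratio is 2 or more in either direction and the level reaches 10 CPM in either group, whatever its counting interval. That call held for 1.07% of 9041 genes toward white and 0.752% toward brown, against 1 (Podn) and 1 (Aspn) of the 8 members that reached the floor. The median log2 ratio of those 8 was -0.25, against 0.04 over all genes at the floor.

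The other log2 ratios of white over brown were -0.44 (95% interval -0.57 to -0.32) for Prelp, -0.42 (95% interval -0.47 to -0.36) for Ogn and -0.38 (95% interval -0.47 to -0.30) for Fmod. Those of the most abundant genes were 0.12 for Dcn, -0.12 for Bgn and -0.08 for Lum. Omd, from few UMIs and under the floor, had -0.61 (95% interval -1.14 to -0.09). Glial levels of the class I genes, from few UMIs, were also higher in the brown library, with Aspn at 11.0 CPM in brown glial cells against 387 in brown precursors. Markers of tendon summed to 111 CPM in white and 210.2 in brown, nearly all of it Tnmd, and their part in the Aspn difference was not tested.

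**Figure D3:**
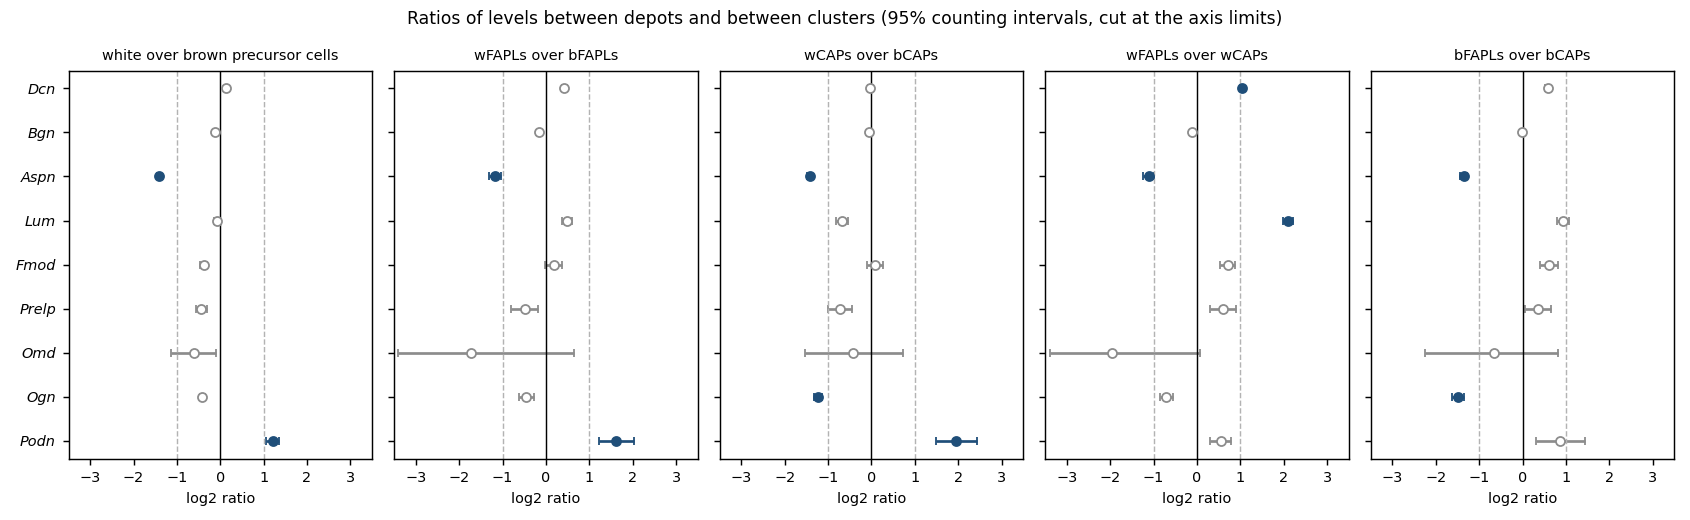
Log2 ratio of each gene in 5 comparisons, with 95% counting intervals, dashed lines at 2-fold and filled points for genes past it. Aspn lies at or past the lower line in all 5 panels, while Lum is at 2.09 in wFAPLs over wCAPs and 0.93 in bFAPLs over bCAPs.

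Between FAPLs and CAPs of white fat, Lum and Dcn were higher and Aspn lower in wFAPLs. The log2 ratio of wFAPLs over wCAPs was 2.09 (95% interval 1.97 to 2.21) for Lum, 1.03 (95% interval 0.99 to 1.08) for Dcn and -1.11 (95% interval -1.24 to -0.99) for Aspn. These 2 higher and 1 lower of 8 members at the floor stand beside 2.25% and 1.6% of all 9199 genes. Ogn had -0.71 (95% interval -0.86 to -0.55), Fmod 0.70 (95% interval 0.54 to 0.87), Prelp 0.59 (95% interval 0.29 to 0.89) and Podn 0.54 (95% interval 0.29 to 0.79), all short of 2-fold, and Bgn -0.11. With cells of male pups only, Aspn was at -0.65, and with names carried over to all filtered cells Fmod was at 1.03. The clusters were made from these same counts, so the ratios describe them and test nothing.

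In brown fat each of the 8 genes other than Omd had a ratio of the same sign, but Ogn in place of Dcn and Lum was past 2-fold beside Aspn. Ogn had a log2 ratio of bFAPLs over bCAPs of -1.49 (95% interval -1.62 to -1.35) and Aspn of -1.36 (95% interval -1.45 to -1.27), both lower in bFAPLs, whereas Lum had 0.93 (95% interval 0.79 to 1.07) and Dcn 0.58 (95% interval 0.52 to 0.64). Of the 7 members at the floor, 0 were past 2-fold higher and 2 lower, beside 1.86% and 2.01% of 9148 genes. Fmod had 0.61 (95% interval 0.40 to 0.83), Prelp 0.35 (95% interval 0.06 to 0.65) and Bgn -0.01 (95% interval -0.05 to 0.02). Lum was past 2-fold with cells of male pups only, at 1.28, and after thinning to 10000 UMIs, at 1.00, and Prelp turned to -0.42 with cells of male pups only.

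Mural markers moved with these ratios, and in white the myeloid list did too, at 31.1 CPM in wFAPLs and 6.14 in wCAPs. Of the myeloid markers Lyz2 was past 2-fold, at 19.9 and 2.48 CPM, and its part in the ratios was not tested. A UMI of Rgs5 or Myh11 was held by 106 of 256 wFAPLs, 73 of 674 wCAPs, 116 of 279 bFAPLs and 64 of 296 bCAPs. Without these cells the log2 ratio of wFAPLs over wCAPs was 1.92 for Lum, 0.99 for Dcn, 1.00 for Prelp and -0.77 for Aspn, so that Aspn and Dcn came short of 2-fold and Prelp was past it. For bFAPLs over bCAPs it was -1.49 for Ogn, -1.22 for Aspn, 0.94 for Lum and 0.48 for Dcn. Directions were unchanged for these genes. Cells marked only by other mural markers stayed in. The wCAPs left out had a median of 31242 UMIs, against 26556 in the wCAPs kept. The part of mural cells in the ratios was not tested.

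Within matched clusters, Aspn was lower and Podn higher in white in both lineages. For wFAPLs over bFAPLs the log2 ratio was -1.18 (95% interval -1.32 to -1.04) for Aspn and 1.62 (95% interval 1.22 to 2.02) for Podn, which were 1 lower and 1 higher of 8 members at the floor, beside 0.646% and 1.04% of 9136 genes. Aspn came short of 2-fold there with cells of male pups, at -0.72, and without cells holding a UMI of Rgs5 or Myh11, at -0.95. For wCAPs over bCAPs it was -1.43 (95% interval -1.49 to -1.36) for Aspn, 1.94 (95% interval 1.48 to 2.43) for Podn and -1.23 (95% interval -1.32 to -1.13) for Ogn, which were 2 lower and 1 higher of 8 members, beside 2.14% and 2.18% of 9235 genes. Tnmd, the only 1 of 5 genes of the tendon list at the floor there, was at 97.6 CPM in wCAPs and 257 in bCAPs. It and the mural marker Myh11, with a log2 ratio of -1.09, were also past 2-fold lower in wCAPs. The part of Tnmd and Myh11 in these ratios was not tested. In wFAPLs against bFAPLs, Myh11 (102 against 48.4 CPM) and the myeloid marker Lyz2 (19.9 against 6.50) were past 2-fold higher. Rgs5 (28.3 against 76.8 CPM) and Fabp4 (37.2 against 91.4) were past 2-fold lower there. The part of these markers was not tested either. Lum pointed in opposite directions, at 0.48 (95% interval 0.37 to 0.59) between FAPLs and -0.68 (95% interval -0.83 to -0.54) between CAPs. Dcn was at 0.42 and -0.03, and Fmod and Bgn at 0.18 and -0.15 between FAPLs and 0.08 and -0.05 between CAPs.

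By cell cycle phase, scored from fixed S and G2M gene lists, 7 of the 9 members were lower in S and in G2M cells than in G1 cells of both depots, the exceptions being Prelp in G2M cells of white and the scarce Omd in both. Ogn was at 104 CPM in G1, 59.0 in S and 50.7 in G2M in white, and at 135 CPM in G1, 82.8 in S and 69.1 in G2M in brown. Lum was at 73.8 CPM in G1, 38.3 in S and 65.0 in G2M in white and at 76.7 CPM in G1, 42.9 in S and 68.5 in G2M in brown, so its low point was S. Bgn was at 1752 CPM in G1, 1646 in S and 1598 in G2M in white, and Prelp at 14.7 CPM in G1, 14.7 in S and 16.5 in G2M. The clusters wAPC 3 and bAPC 3, with 48.5% and 52.0% of cells called G2M, held the least Podn of their depots among clusters of at least 50 cells. Phase calls also read free RNA, and its part was not tested.

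**Figure D4:**
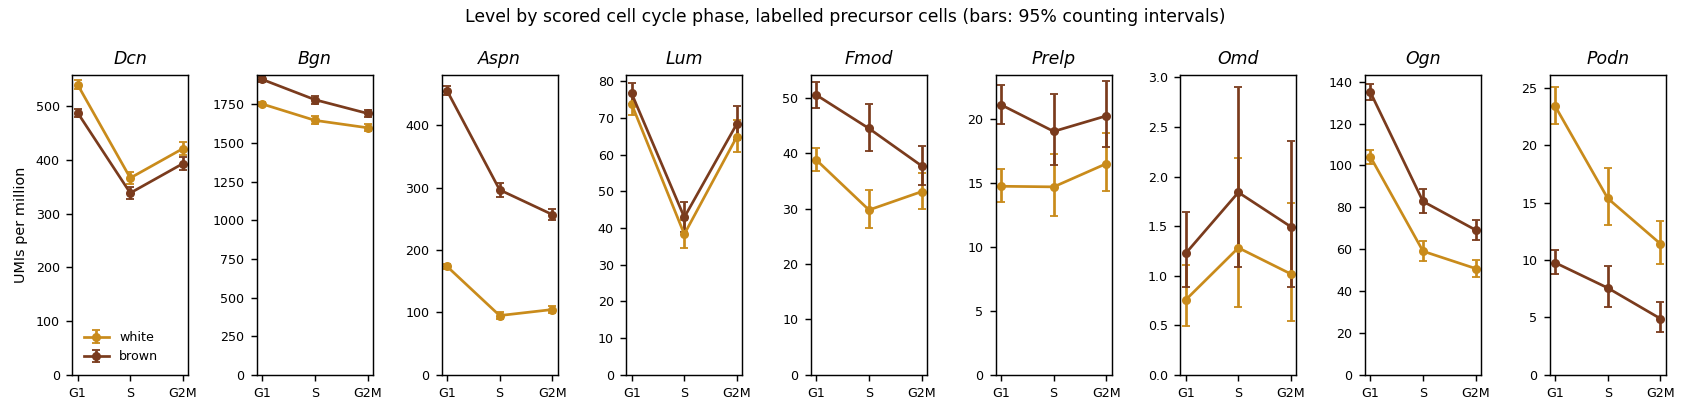
Level of each gene in cells called G1, S and G2M, in CPM, for both depots. Ogn runs from 104 CPM in G1 to 50.7 in G2M in white, while Bgn stays near its G1 level.

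Cells of female and male pups could be told apart by Xist and Y-linked genes, with 1539 female and 397 male cells in white and 1655 and 272 in brown. No member was past 2-fold, beside 0.1% of 8979 genes in white and 0.0893% of 8957 in brown. X-linked Bgn had a log2 ratio of female over male of -0.03 in white and -0.03 in brown. The depot ratio of Aspn was -1.41 in female and -1.47 in male cells, and that of Podn 1.15 and 1.43.

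From cell to cell within a cluster (13 clusters of at least 50 cells, each cell thinned to 10000 UMIs), Dcn had the highest variance over the mean of all members in 12 of 13 clusters, Fmod being higher in bAPC 5. This ratio ran from 1.33 to 2.36 for Bgn, from 2.83 to 5.22 for Dcn and from 1.55 to 4.62 for Lum, from 2.15 to 3.58 for Aspn and from 1.39 to 2.30 for Ogn, where counting alone gives 1. The ratio also depends on the mean level of a gene, so it does not order members of unlike level by variability. In wCAPs the mean thinned UMIs per cell were 17.8 for Bgn, 4.78 for Dcn and 0.58 for Lum. Dcn and Lum varied together, with a median Spearman rho of 0.36 (0.22 to 0.62 over 13 clusters, highest in wFAPLs), and Aspn and Ogn had 0.24 (0.15 to 0.35). The other 34 of 36 pairs had medians under 0.2. Cells of a cluster share a library, so these are descriptions across cells.

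Of the listed genes that modify, cut or bind these proteins, Pxylp1, Pcolce2 and Bmp4 were past 2-fold between depots. All of them were lower in white, and their brown levels of 11.5 to 17.6 CPM were near the floor of 10 CPM. Of all genes at the floor, 1.07% were past 2-fold higher in white and 0.752% lower. Of 23 genes for the linker and chondroitin or dermatan sulfate chains, 19 reached the floor and 1, Pxylp1, which removes phosphate from the linker xylose, was past 2-fold, at 6.85 against 14.3 CPM in white against brown. Of 12 keratan sulfate genes 0 of 7 at the floor were past it, and both tyrosine sulfotransferases, Tpst1 and Tpst2, stayed within 2-fold in all 5 comparisons. Of 13 collagen partners 0 of 12 were past it, with sums of 15826 and 14659 CPM, and of 8 crosslinking genes 0 of 7. Of 14 processing proteases and their enhancers 1 of 10 was past it, Pcolce2, which enhances procollagen trimming, at 8.54 against 17.6 CPM. Of 13 TGF-beta and BMP ligands and partners found in the matrix 1 of 10 was, Bmp4, at 4.99 against 11.5 CPM, and of 13 receptors 0 of 7.

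Between FAPLs and CAPs, where 2.25% of all genes at the floor were past 2-fold higher and 1.6% lower in white, and 1.86% and 2.01% in brown, the listed genes were as follows. Col14a1, a collagen of fibril surfaces, was at 238 against 77.8 CPM in wFAPLs against wCAPs and 182 against 47.3 CPM in bFAPLs against bCAPs, as the single one past 2-fold of 12 collagen partners at the floor. Adamts5, a protease that cleaves proteoglycans, was at 289 against 105 CPM in white and 346 against 165 CPM in brown, and Tll1, a protease related to those that trim procollagen, at 17.2 against 7.89 CPM in white. Of the 10 TGF-beta and BMP genes at the floor, 3 were past 2-fold in white and 2 in brown. Bmp4 was higher in FAPLs, at 17.7 against 1.86 CPM in white and with a log2 ratio of 1.06 in brown, and Tgfbr3 lower, at 132 against 312 CPM and 78.5 against 163 CPM. Ccn2 was past 2-fold higher in wFAPLs, at 166 against 48.7 CPM. Of the 7 receptors at the floor, Met, the receptor of hepatocyte growth factor, was the 1 past 2-fold in white, lower in wFAPLs, at 6.14 against 13.1 CPM. Of the linker and chondroitin sulfate genes, Chst11 was the 1 past 2-fold in white, at 36.7 against 73.5 CPM, and Pxylp1 the 1 in brown, at 11.3 against 26.8 CPM, both lower in FAPLs. Between wFAPLs and bFAPLs, Bmp4 was the 1 gene of these partner lists past 2-fold, at 17.7 against 43.6 CPM. Between wCAPs and bCAPs, Chst11, Col5a3 and Tgfb2 were past 2-fold higher in white, and Pxylp1, Chst2, Tll1, Pcolce2, Bmp4 and Ccn2 lower.

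The genes whose levels across the 13 clusters of at least 50 cells most resembled each member, by Pearson's r of log2(CPM + 1) among 9911 genes, included another member for Dcn and for Lum, which named each other. For Dcn they were Lum (r = 0.95), Abcc9 (r = 0.91), Emb (r = 0.91), and for Lum Il33 (r = 0.95), Dcn (r = 0.95), Ginm1 (r = 0.91). For Aspn they were Sdhc (r = 0.94), Ube2r2 (r = 0.93), Mpped2 (r = 0.92), for Ogn Pdp1 (r = 0.90), Gria3 (r = 0.87), Irs1 (r = 0.87) and for Podn C1s1 (r = 0.90), Dennd4a (r = 0.89), Kcnip4 (r = 0.88). For Bgn they were Pop7 (r = 0.88), Ddrgk1 (r = 0.84), Eif3f (r = 0.84), for Fmod Csrp2 (r = 0.95), Trac (r = 0.87), Ssr4 (r = 0.85) and for Prelp Tmem184b (r = 0.94), Smtn (r = 0.94), Slc4a2 (r = 0.92). The clusters share 2 libraries and their depth, and r over 13 points is given as a description.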

How the data were processed

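Stromal-vascular cells of 1 white and 1 brown library were captured with the 10x Chromium 3′ kit. The deposited counts are UMI counts per gene and cell, made by the authors with Cell Ranger 7.0.1 (version from the submitters' processing notes) against mouse build mm10, with no normalization. The cell filter of the study (3900 to 7700 genes, 1.7 to 5% mitochondrial UMIs, 6000 to 60000 UMIs) was applied here. It kept 4407 white and 6137 brown cells, and the brown count differs slightly from the one the paper gives. The study's cluster names were joined to the first 1999 precursors of each depot, only part of those it clustered. With names carried over, 4332 white and 5963 brown filtered cells were precursors. Labelled cells held 57368210 white and 57780702 brown UMIs.

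UMIs were summed per cluster and divided by all UMIs of the cluster. Intervals of 95% were Poisson for levels, Clopper-Pearson for shares and conditional binomial for ratios, and cover counting error only. With 1 library per depot no test was run. Shares were recomputed after thinning cells to 10000 UMIs. Named genes were the 9 members, the listed partner genes that passed the fold, and for each member the 3 genes most like it. The members and gene lists were chosen with earlier results of these data known. Python 3.11.15, numpy 2.4.6, scipy 1.17.1, pandas 2.3.3 and biopython 1.88 were used, and ratio code was tested on simulated data. Alternatives varied cells, scaling, floor and thinning.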

Additional observations from a re-analysis of the deposited data

Results flagged for a closer look

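Lum was the single member whose depot ratio pointed in opposite directions in the 2 lineages with both counting intervals clear of 0. Dcn also had opposite signs, at 0.42 and -0.03, but the interval of the second included 0. Lum was higher in wFAPLs than in bFAPLs (log2 0.48) and lower in wCAPs than in bCAPs (log2 -0.68), a difference of 1.16 on the log2 scale. The difference was not tested, since each depot was 1 library.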

How the results depend on the processing

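No paired analysis was possible because the labels give no replicate numbers and each depot was 1 library. Of 68 counts of members past 2-fold under other settings, 66 stayed within 1.5 times the reported count, with exactly 1.5 times included. The counts were small, and this tally does not show whether the same members passed. Without cells holding a UMI of Rgs5 or Myh11, Aspn and Dcn came short in wFAPLs over wCAPs and Prelp passed. No ratio past 2-fold changed sign, but 20 of 63 ratios, all short of 2-fold or under the floor, did so under at least 1 setting. Prelp in bFAPLs over bCAPs came to -0.42 and in wFAPLs over bFAPLs to 0.18 with cells of male pups, and Fmod and Dcn in wCAPs over bCAPs kept their sign in 6 and 7 of 10 settings. Both exceptions concern wFAPLs over bFAPLs, where the count was 1 with cells of male pups and 1 without cells holding a UMI of Rgs5 or Myh11, since Aspn then came to -0.72 and -0.95 on the log2 scale. These settings by sex and by Rgs5 or Myh11 were chosen after seeing the data. Omd had no ratio where thinning or leaving out cells brought a group to 0 UMIs. Depth limits Omd, with 52 and 80 UMIs, and the 15 differentiating wFAPLs. Names covered the first 1999 precursors of each depot, and names carried over to the other cells returned the study's own name for 85.4% of white and 79.4% of brown labelled cells.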
